A study of Mus musculus with 6 samples.

Results

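The genes described here belong to the BMP/ALK1 pathway of endothelial cells: the ligand gene Bmp6, the receptor genes Acvrl1, Bmpr2 and Eng, the inhibitory SMAD genes Smad6 and Smad7, and the target genes Tmem100, Id1, Id2 and Id3. These 10 genes, of 23329 gene symbols counted, were picked by name because Tmem100 was higher in GLUT1EC-/- libraries in these same data. Their differences between GLUT1EC-/- and WT are therefore a description and are given without a test. The study measured mRNA by sequencing in brain endothelial cells pulled out with magnetic beads from 3 GLUT1EC-/- mice and 3 WT littermates, to ask how the endothelial transcriptome differs without the glucose transporter GLUT1. GLUT1EC-/- mice lack Glut1 (symbol Slc2a1) in endothelial cells. The driver of the deletion is not given in the sources used here. All animals were 8 weeks old and of the C57BL/6 strain, and the cells were lysed without culture. Each library carries its own animal number, so the spread given below is that between 3 animals per genotype. Libraries held 35323299 to 37868681 counts in GLUT1EC-/- and 31874662 to 39424384 in WT.

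BMP9 and BMP10 reach the endothelium in blood and bind ALK1, a receptor kinase that endothelial cells express in particular, together with BMPR2 and the co-receptor endoglin. The receptors phosphorylate SMAD1 and SMAD5, which join SMAD4 in the nucleus and switch on the Id genes and the inhibitors Smad6 and Smad7. In human vessels, mutations of ENG or ACVRL1 cause hereditary haemorrhagic telangiectasia. Tmem100 encodes a small membrane protein whose expression in arterial endothelium of the mouse embryo depends on ALK1.

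The libraries did not separate by the targeted gene. Slc2a1 had 3735, 5414 and 3893 CPM (counts scaled to library size with TMM factors) in GLUT1EC-/- 1, 2 and 3, against 3984, 4479 and 4172 CPM in WT 1, 2 and 3. That made a log2 difference of 0.05 (SE 0.18, adjusted p = 0.921 by edgeR). Which exons were deleted is not given in the sources used here, so every direction below is between libraries as labelled. The label of endothelial cells was checked with 10 endothelial markers, all detected, which does not measure purity. Their summed level was 13992 to 15423 CPM in GLUT1EC-/- and 14970 to 15656 CPM in WT, and 0 of 10 passed the edgeR test. The groups did not overlap for 5 of the 10 markers, against 22.9% of all tested genes. The most abundant were the VEGF receptor gene Flt1, with 3302 ± 270.4 CPM in GLUT1EC-/- and 4358 ± 292 CPM in WT, and the transporter gene Slco1a4, with 2068 ± 241.2 CPM in GLUT1EC-/- and 2122 ± 39.5 CPM in WT. GLUT1EC-/- 2 stood apart, with a TMM factor of 0.884 against 1.01 to 1.05 in the other libraries. From Xist and Ddx3y counts, GLUT1EC-/- 3 and WT 3 were male and the others female, and the animal numbers fall into a series of 200s (GLUT1EC-/- 1, WT 1 and WT 2) and one of 500s (the others).

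Tmem100 was the member with the widest gap between the genotypes. It had 84.5, 79.9 and 100.1 CPM in GLUT1EC-/- 1, 2 and 3, against 21.9, 33.9 and 25.4 CPM in WT 1, 2 and 3. The lowest GLUT1EC-/- library stood well above the highest WT library. The means were 88.2 ± 10.6 CPM in GLUT1EC-/- and 27.1 ± 6.16 CPM in WT (SD, n = 3 each), from 2675 to 3696 counts per GLUT1EC-/- library and 708 to 1160 per WT library. The fitted difference was 3.26-fold, with a 95% interval of 2.41 to 4.39, or 1.70 on the log2 scale (SE 0.19). It was 1.63 on the log2 scale within the 200s and 1.81 within the 500s, and lay between 1.56 and 1.89 in all alternatives run. In bulk samples such as these, fewer cells of a type and less RNA per cell cannot be told apart. Tmem100 lies at chr11:90030348-90036508 on the plus strand (GRCm38, GENCODE M21) and has 3 exons.

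Tmem100 was the single member of 10 that passed an adjusted p of 0.05 with edgeR, where 1.31% of the 14838 genes tested did and 0.863% were called higher, and nothing is read from this since the gene was chosen on this contrast. The call was lost without WT 1, without WT 2 or without WT 3, each of which left 0 members called, and with the animal number series as a term. All 10 members passed the filter on low counts. The groups did not overlap for 4 members, Tmem100, Eng, Bmpr2 and Smad6, all higher in GLUT1EC-/-, where 22.9% of all tested genes did not overlap in either direction and 11.7% were higher. The median log2 fold change was 0.17 over the 10 members and 0.01 over all tested genes. The 95% interval of the log2 fold change included 0 for 8 members, the exceptions being Tmem100 and Bmpr2. An interval that leaves out 0 corresponds to an unadjusted p under 0.05 by edgeR, which 2148 of the 14838 tested genes had. Nothing is read from these 2 members, since the members were picked with this contrast known.

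**Figure D1:**
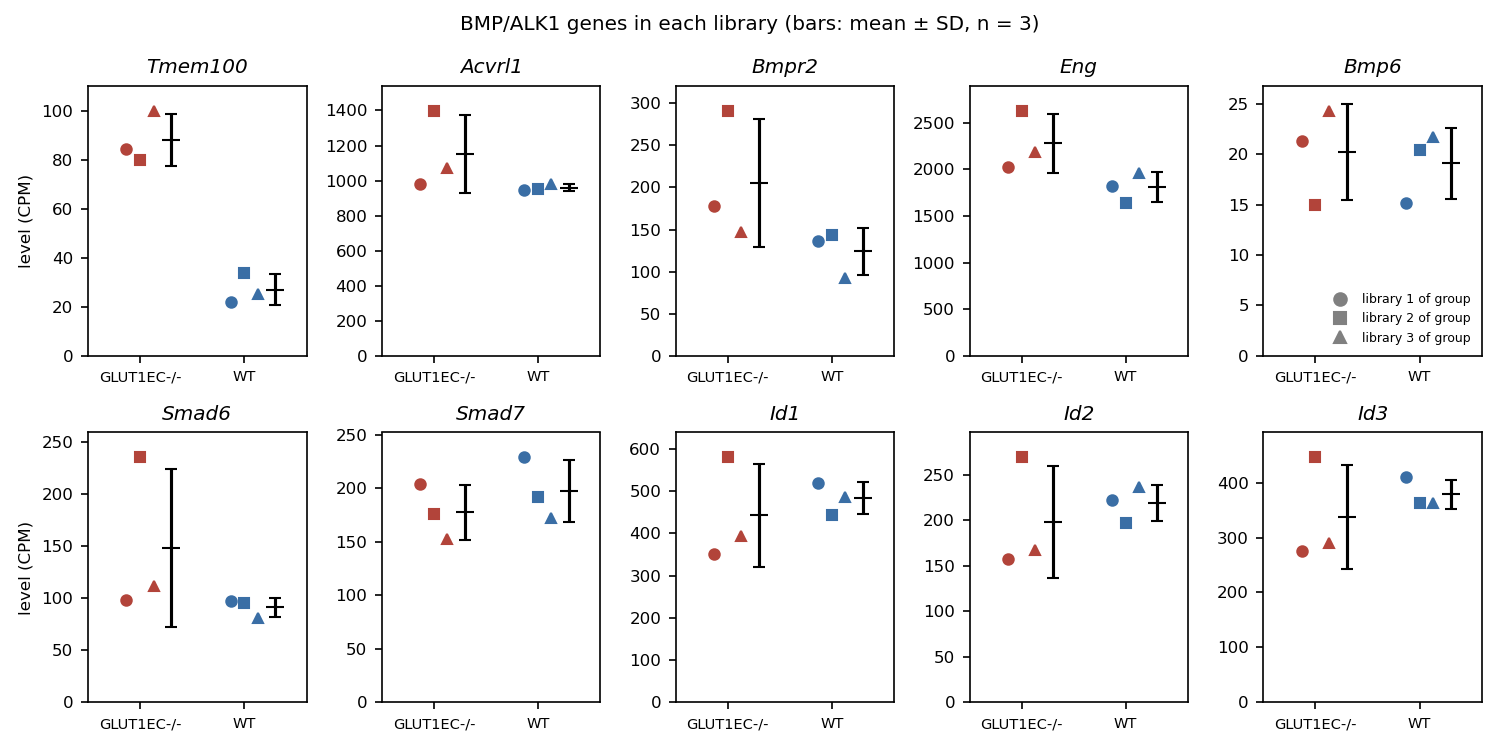
Level of each of the 10 genes (CPM, linear axis from 0, one panel per gene) in each library, GLUT1EC-/- left of WT, with the group mean and SD (n = 3). Tmem100 separates the groups widely, with 79.9 CPM or more in GLUT1EC-/- and 33.9 CPM or less in WT, and the highest point of 7 other genes is GLUT1EC-/- 2.

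Of the ligands, Bmp6, best known from liver endothelium, where it controls iron balance, and acting through type I receptors other than ALK1, was detected at a low level. It had 21.3, 14.97 and 24.3 CPM in GLUT1EC-/- 1, 2 and 3, against 15.1, 20.4 and 21.7 CPM in WT 1, 2 and 3. The libraries of the genotypes were interleaved. The log2 fold change was 0.08 (SE 0.22), and its 95% interval of -0.42 to 0.59 reaches to both sides of 0. The ALK1 ligands themselves were not seen as mRNA: Bmp10 had 0 counts in all 6 libraries and Gdf2, which encodes BMP9, had 1 count in WT 3 and 0 elsewhere. For a gene with 0 counts, 3 counts in the smallest library correspond to 0.0928 CPM.

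The fitted differences of the 3 receptor genes were positive, and GLUT1EC-/- 2 was the highest library for each, but the 95% intervals of Acvrl1 and Eng included 0. Acvrl1, which encodes ALK1, had 979.5, 1399.6 and 1073 CPM in GLUT1EC-/- 1, 2 and 3, against 947, 950.0 and 983 CPM in WT 1, 2 and 3. The groups overlapped at GLUT1EC-/- 1, which was just below WT 3. On the log2 scale the fitted difference was 0.26 (SE 0.16, 95% interval -0.11 to 0.63), and 0.09 without GLUT1EC-/- 2.

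Eng, the gene of the ALK1 co-receptor endoglin, had 2022, 2632 and 2191 CPM in GLUT1EC-/- 1, 2 and 3, against 1826, 1645 and 1964 CPM in WT 1, 2 and 3. All GLUT1EC-/- libraries were above all WT libraries, by a small margin between GLUT1EC-/- 1 and WT 3. The fitted log2 difference was 0.33 (SE 0.15, 95% interval -0.02 to 0.69), and 0.21 without GLUT1EC-/- 2.

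Bmpr2, the gene of the type II receptor that activates ALK1, had 178, 291 and 147 CPM in GLUT1EC-/- 1, 2 and 3, against 136, 144 and 92.4 CPM in WT 1, 2 and 3. The groups did not overlap, but GLUT1EC-/- 3 was close to WT 2. On the log2 scale the difference was 0.72 (SE 0.28, 95% interval 0.09 to 1.36), and 0.38 without GLUT1EC-/- 2. Within the 200s it was 0.34 and within the 500s 1.16.

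The inhibitory SMAD genes are both targets and brakes of the pathway. The 95% intervals of both included 0, and the difference between them was not tested. Smad6, which in cells mainly restrains BMP receptors, had 98.2, 236 and 111 CPM in GLUT1EC-/- 1, 2 and 3, against 97.6, 95.4 and 81.2 CPM in WT 1, 2 and 3. GLUT1EC-/- 2 was far above every other library, and GLUT1EC-/- 1 was barely above WT 1. The log2 fold change was 0.70 (SE 0.31, 95% interval -0.02 to 1.41), and it came to 0.19 without GLUT1EC-/- 2.

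Smad7, which restrains both BMP and TGF-beta receptors, had 204, 176 and 153 CPM in GLUT1EC-/- 1, 2 and 3, against 229, 192 and 172 CPM in WT 1, 2 and 3. The groups overlapped, with a log2 fold change of -0.16 (SE 0.16, 95% interval -0.53 to 0.22). For every 1000 Smad7 counts there were 481, 1339 and 729 Smad6 counts in GLUT1EC-/- 1, 2 and 3, against 426, 496 and 472 in WT 1, 2 and 3, and the ratio of GLUT1EC-/- 1 lay within the WT range.

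The Id genes encode helix-loop-helix proteins without a DNA-binding region, which tie up E proteins and are the usual readout of BMP signalling. Id1 had 352, 581 and 394 CPM in GLUT1EC-/- 1, 2 and 3, against 519.8, 444 and 485 CPM in WT 1, 2 and 3. Id2 had 158, 269 and 167 CPM in GLUT1EC-/- 1, 2 and 3, against 222, 197 and 237 CPM in WT 1, 2 and 3. Id3 had 275, 446 and 291 CPM in GLUT1EC-/- 1, 2 and 3, against 409.6, 363 and 363 CPM in WT 1, 2 and 3. All 3 genes had the same shape: GLUT1EC-/- 1 and GLUT1EC-/- 3 were below every WT library and GLUT1EC-/- 2 was above every WT library. Being below every WT library in both GLUT1EC-/- 1 and GLUT1EC-/- 3 was shared by 17.9% of all tested genes. With library size alone in place of TMM factors, GLUT1EC-/- 2 was no longer the highest library for Id1, Id2 or Id3.

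Fitted over all 6 libraries, the log2 fold change was -0.13 for Id1 (SE 0.20, 95% interval -0.58 to 0.33). For Id2 it was -0.14 (SE 0.21, 95% interval -0.64 to 0.35), and for Id3 it was -0.16 (SE 0.20, 95% interval -0.62 to 0.29). Without GLUT1EC-/- 2 these values were -0.38 for Id1, -0.44 for Id2 and -0.42 for Id3. The summed level of the 3 genes was 785, 1296 and 852 CPM in GLUT1EC-/- 1, 2 and 3, against 1152, 1004 and 1084 CPM in WT 1, 2 and 3. The Id genes thus gave no common direction across the GLUT1EC-/- animals.

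The gap in Tmem100, for which it was chosen, carries over when it is set against other members within a library. For every 1000 Id1 counts there were 239.9, 138 and 254 Tmem100 counts in GLUT1EC-/- 1, 2 and 3, against 42.1, 76.4 and 52.5 in WT 1, 2 and 3. The lowest GLUT1EC-/- ratio, in GLUT1EC-/- 2, was still above the highest WT ratio. Set against Acvrl1, the gene of ALK1, Tmem100 had 86.2, 57.1 and 93.2 counts per 1000 Acvrl1 counts in GLUT1EC-/- 1, 2 and 3, against 23.1, 35.7 and 25.9 in WT 1, 2 and 3. These ratios use no scaling between libraries, and the groups did not overlap for either. Id1 and Acvrl1 themselves differed little, with log2 fold changes of -0.13 and 0.26. The ratios therefore repeat the gap on which Tmem100 was chosen, and nothing further is read from them.

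**Figure D2:**
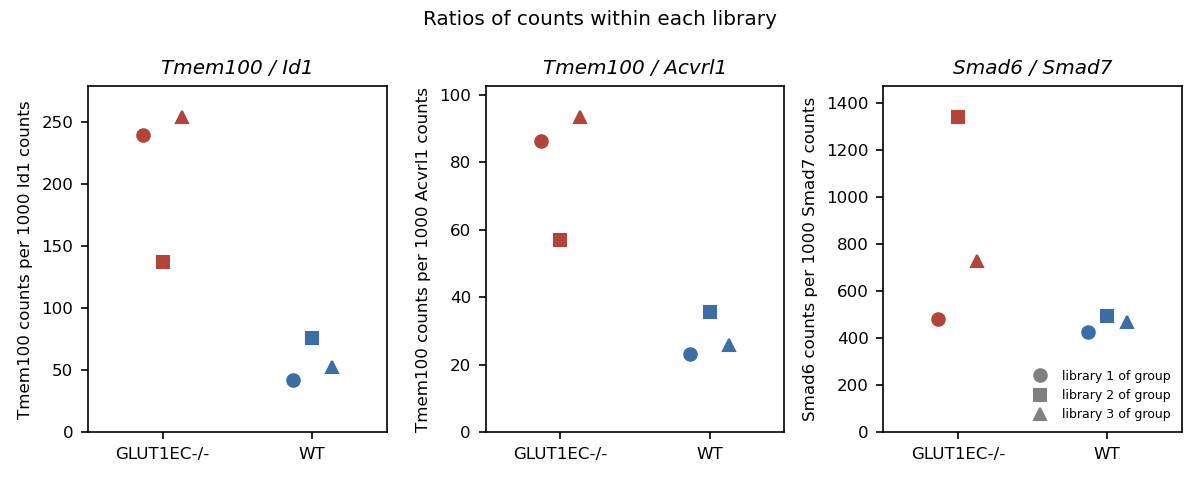
Counts of the first-named gene per 1000 counts of the second, by library, GLUT1EC-/- left of WT, with 1 symbol per library. Tmem100 per 1000 Id1 counts is 138 or more in GLUT1EC-/- and 76.4 or less in WT, which repeats the gap on which Tmem100 was chosen. Smad6 per 1000 Smad7 counts overlaps between the groups.

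**Figure D3:**
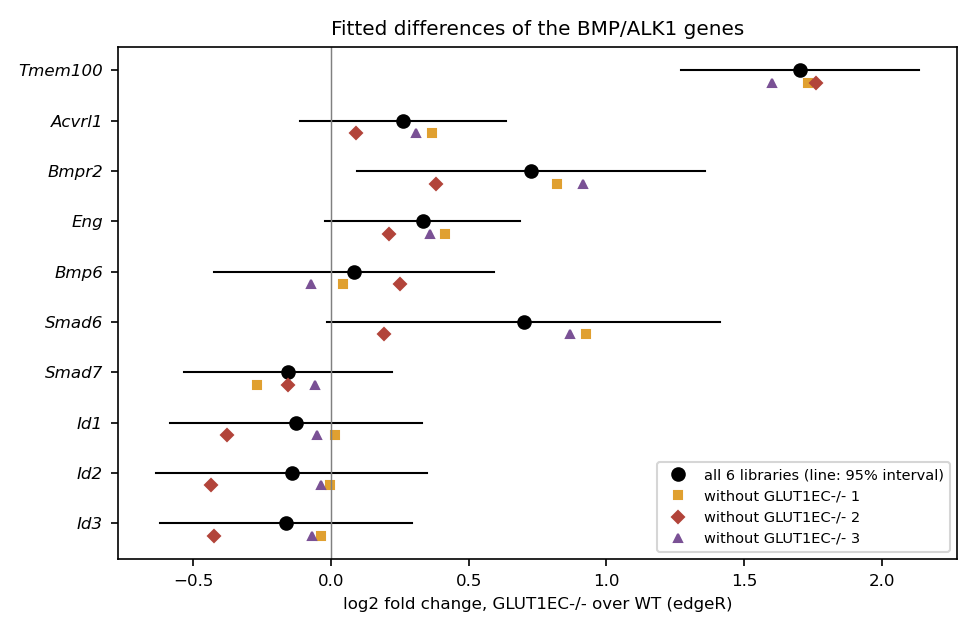
Fitted log2 fold change of GLUT1EC-/- over WT for each of the 10 genes, with 95% intervals (black), and the same without each GLUT1EC-/- library in turn (coloured), from edgeR. Tmem100 at 1.70 lies apart from the other 9, which run from -0.16 to 0.72, and without GLUT1EC-/- 2 the values of Smad6 (0.19) and Bmpr2 (0.38) move most toward 0.

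GLUT1EC-/- 2 set much of the spread among the members. It had the highest level of 7 of the 10 (Acvrl1, Eng, Bmpr2, Smad6, Id1, Id2 and Id3), against 33.3% of all tested genes. With library size alone it was highest for 4 of the 10 (Acvrl1, Eng, Bmpr2 and Smad6), against 20.4% of all tested genes. The SD of log2 CPM was larger in GLUT1EC-/- than in WT for 9 of the 10 members and for 73.2% of all tested genes. In some cell type lists the marker sums also set GLUT1EC-/- 2 apart. Its erythroid sum was 104 CPM, against 345 to 1067 CPM in the other libraries, and its fibroblast sum 1909 CPM, against 334 to 1043 CPM. The choroid plexus sum was 4100 CPM, against 5250 to 8543 CPM, and the capillary sum 3646 CPM, against 4879 to 6714 CPM. Their part in the spread was not tested.

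Levels can be compared between genes only per length, here as CPM per kilobase of the gene's combined exons. On that scale Eng led with 564 ± 77.8 in GLUT1EC-/- and 448 ± 39.5 in WT, followed by Id1 with 381 ± 105 in GLUT1EC-/- and 416 ± 32.8 in WT. Acvrl1 followed at 269.8 ± 51.7 in GLUT1EC-/- and 225 ± 4.62 in WT, and Id3 at 188 ± 52.9 in GLUT1EC-/- and 211 ± 15.1 in WT. In WT, Acvrl1 and Id3 differed by less than the SD of Id3, as did Eng and Id1 by less than the SD of Eng. Id2 came next at 81.3 ± 25.4 in GLUT1EC-/- and 89.8 ± 8.14 in WT.

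Tmem100 per kilobase was 49.9 ± 5.98 in GLUT1EC-/- and 15.3 ± 3.48 in WT (SD, n = 3 each). In WT it stood below Smad7 (43.8 ± 6.41) and Smad6 (28.5 ± 2.78), and in GLUT1EC-/- it did not differ from Smad6 (46.3 ± 23.6) by more than the SD of Smad6. Bmpr2 had 11.4 ± 4.22 in GLUT1EC-/- and 6.91 ± 1.55 in WT. Bmp6 was lowest with 5.18 ± 1.22 in GLUT1EC-/- and 4.89 ± 0.891 in WT. Eng exceeded 99.6% of the 13395 tested genes that have a length, and Bmp6 exceeded 52.1% of them.

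The start regions of 4 members are shown because BMP targets are known to be switched on through GC-rich elements with the letters GGCGCC and through the SMAD palindrome GTCTAGAC. They are RefSeq sequences on GRCm38.p6, 5′ to 3′ on the gene's strand, with the motif in capitals. RefSeq windows were matched for 6 of the 10 members, and Tmem100, Acvrl1, Smad7 and Id1 were not matched.
Id2, chr12:25096093-25096342, minus strand: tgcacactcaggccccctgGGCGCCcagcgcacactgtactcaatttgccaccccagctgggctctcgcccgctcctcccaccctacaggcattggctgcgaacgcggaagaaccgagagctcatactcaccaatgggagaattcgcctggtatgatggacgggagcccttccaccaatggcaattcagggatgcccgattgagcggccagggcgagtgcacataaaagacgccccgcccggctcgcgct
Id3, chr4:136143572-136143821, plus strand: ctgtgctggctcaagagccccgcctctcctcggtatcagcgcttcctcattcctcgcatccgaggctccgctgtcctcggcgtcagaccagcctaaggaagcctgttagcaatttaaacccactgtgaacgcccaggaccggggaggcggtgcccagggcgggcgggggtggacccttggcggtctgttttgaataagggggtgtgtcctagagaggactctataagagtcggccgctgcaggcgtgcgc
Smad6, chr9:64022056-64022309, minus strand: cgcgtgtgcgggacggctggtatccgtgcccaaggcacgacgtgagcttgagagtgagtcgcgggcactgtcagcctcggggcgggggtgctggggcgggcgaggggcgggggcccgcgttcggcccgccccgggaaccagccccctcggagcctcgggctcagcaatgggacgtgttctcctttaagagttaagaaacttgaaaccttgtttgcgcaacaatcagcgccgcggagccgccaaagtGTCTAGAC
Bmpr2, chr1:59764029-59764278, plus strand: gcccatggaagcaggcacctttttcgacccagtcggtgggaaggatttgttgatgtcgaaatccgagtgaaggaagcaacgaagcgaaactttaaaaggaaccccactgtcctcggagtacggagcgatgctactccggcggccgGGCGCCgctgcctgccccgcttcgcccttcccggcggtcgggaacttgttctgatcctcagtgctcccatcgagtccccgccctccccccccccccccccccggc
The Id2 and Bmpr2 stretches each hold GGCGCC, which begins 231 bases before the RefSeq start of Id2 and 105 bases before that of Bmpr2. By GENCODE M21 the genes begin further upstream, at chr12:25097140 for Id2, chr1:59763400 for Bmpr2 and chr4:136143497 for Id3. The printed stretches of Id2, Bmpr2 and Id3 thus lie within the genes as GENCODE draws them. The Smad6 stretch ends with GTCTAGAC, which runs from 4 bases before the start to 4 bases after it. The Id3 stretch holds neither, and nor do the windows of Eng and Bmp6, which are not printed, so 3 of the 6 matched members hold one of these motifs. Both motifs read the same on either strand, and GTCTAGAC contains the shorter SMAD box GTCT and its reverse AGAC. Among 32851 RefSeq windows of 250 bases before to 50 bases after a start, 11.9% held GGCGCC, 0.213% held GTCTAGAC and 88.0% held GTCT or AGAC. A match describes the letters only, and no binding was measured.

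Of 74 other genes listed for the BMP and TGF-beta pathway, 62 had enough counts to be tested, of which 3 rose (Mgp, Fkbp1a and Fstl1), 1 fell (Tgfb2) and 58 did not pass, where 1.31% of all tested genes passed. The groups did not overlap for 19 of the 62 (30.6%), against 22.9% of all tested genes. The pathway lists were written with earlier results of these data known, so nothing is read from these shares. The median log2 fold change of the 62 genes was 0.10, against 0.01 over all tested genes. All 4 calls were lost without GLUT1EC-/- 1, WT 1, WT 2 or WT 3, each of which left 0 of these genes called, and with the animal number series as a term. Without GLUT1EC-/- 2 there were 12 calls.

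Mgp, whose product matrix Gla protein binds and holds back BMP ligands and is itself a target of ALK1, had 665, 823 and 695 CPM in GLUT1EC-/- 1, 2 and 3, against 213, 343 and 271 CPM in WT 1, 2 and 3. Every GLUT1EC-/- library was far above every WT library. This was a log2 difference of 1.40 (SE 0.20, adjusted p = 0.0207 by edgeR), with 1.30 within the 200s and 1.48 within the 500s.

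Fkbp1a encodes FKBP12, which sits on type I receptors and keeps them inactive. It had 434, 585 and 439 CPM in GLUT1EC-/- 1, 2 and 3, against 215, 213 and 257 CPM in WT 1, 2 and 3, again with no overlap. That was 1.09 on the log2 scale (SE 0.17, adjusted p = 0.0262 by edgeR). GENCODE M21 has 3 processed copies named after this gene, so its count is uncertain.

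Fstl1, a follistatin-like secreted protein that binds BMP ligands, had 51.8, 62.7 and 59.5 CPM in GLUT1EC-/- 1, 2 and 3, against 27.5, 37.5 and 24.96 CPM in WT 1, 2 and 3. Its log2 fold change was 0.95 (SE 0.18, adjusted p = 0.0494 by edgeR), a call made in 5 of the 17 alternative fits or thresholds. Tgfb2, the gene of the ligand TGF-beta2, was lower in every GLUT1EC-/- library. It had 107, 122 and 97.2 CPM in GLUT1EC-/- 1, 2 and 3, against 193, 208 and 168 CPM in WT 1, 2 and 3. It fell by 0.80 on the log2 scale (SE 0.15, adjusted p = 0.0460 by edgeR).

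**Figure D4:**
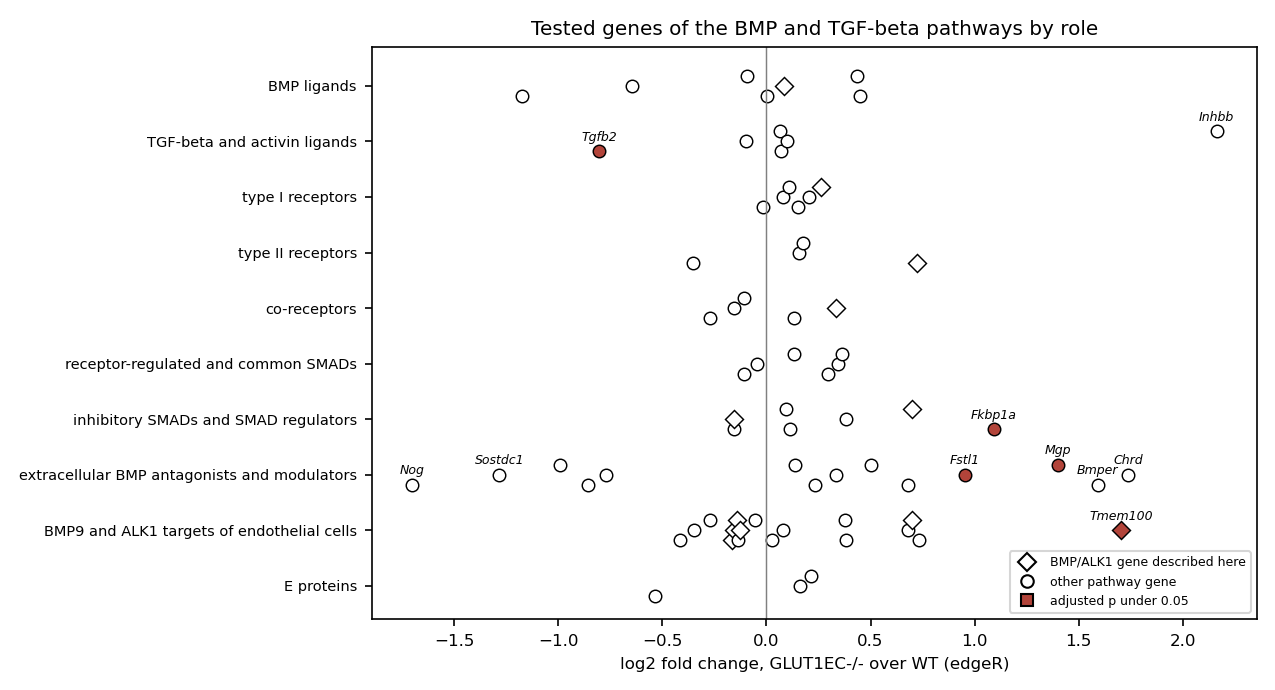
Fitted log2 fold change of GLUT1EC-/- over WT for the tested pathway genes, grouped by role, with the 10 members as diamonds and called genes filled. The extracellular antagonists run from Nog at -1.70 to Chrd at 1.74, the highest single value is that of Inhbb at 2.16, which did not pass, and the type I receptors other than Acvrl1 lie between -0.02 (Acvr1) and 0.21 (Acvr1b).

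The extracellular antagonists and modulators, which trap BMP ligands outside the cell, spread to both sides. Of 14 tested, 2 rose (Mgp and Fstl1), 0 fell and 12 did not pass. The groups did not overlap for 12 of the 14, against 22.9% of all tested genes. With edgeR, 11 of the 14 had an unadjusted p under 0.05, where 2148 of the 14838 tested genes did. With the animal number series as a term there were 6, where 1569 of all tested genes did. Without 1 WT library there were 6 or 7, where 1199 to 1712 of all tested genes did. This list was written with earlier results of these data known, so nothing is read from these shares. Nog, the gene of noggin, had 0.653, 0.687 and 0.433 CPM in GLUT1EC-/- 1, 2 and 3, against 2.54, 1.81 and 1.45 CPM in WT 1, 2 and 3, a log2 difference of -1.70 (SE 0.38, adjusted p = 0.0800 by edgeR). Chrd, the gene of chordin, had 2.82, 3.11 and 3.38 CPM in GLUT1EC-/- 1, 2 and 3, against 1.02, 0.497 and 1.26 CPM in WT 1, 2 and 3, a log2 difference of 1.74 (SE 0.37, adjusted p = 0.0757 by edgeR). Both are rare transcripts that missed the threshold here and passed with DESeq2. Sostdc1, a secreted antagonist of BMP and WNT ligands, had 11.8, 3.79 and 10.5 CPM in GLUT1EC-/- 1, 2 and 3, against 17.9, 19.9 and 25.7 CPM in WT 1, 2 and 3, a log2 difference of -1.28 (adjusted p = 0.170 by edgeR). Grem1 (-0.99, adjusted p = 0.302 by edgeR) and Chrdl1 (-0.86, adjusted p = 0.416 by edgeR) also had negative log2 fold changes without passing. Bmper (1.59, adjusted p = 0.261 by edgeR) and Fstl3 (0.68, adjusted p = 0.285 by edgeR) had positive ones without passing.

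In the other upstream roles few genes stood apart. Of 6 further BMP ligand genes tested with edgeR, 0 passed and 0 had an unadjusted p under 0.05, while DESeq2 and limma-voom each had 0 that passed and 1 with an unadjusted p under 0.05 (Gdf10). Over all tested genes, 2363 of 14834 with DESeq2 and 2106 of 14838 with limma-voom had an unadjusted p under 0.05. Bmp4, the most abundant of them over all 6 libraries, averaged 22.3 ± 7.08 CPM in GLUT1EC-/- and 16.5 ± 2.79 CPM in WT, with a log2 difference of 0.44 (adjusted p = 0.459 by edgeR). Gdf10 and Gdf11, whose groups did not overlap, had log2 fold changes of -1.18 (adjusted p = 0.348 by edgeR) and -0.64 (adjusted p = 0.426 by edgeR). Of 5 type I receptor genes, 3 type II receptor genes, 4 co-receptor genes and 6 SMAD genes, members apart, edgeR called 0 and gave 0 an unadjusted p under 0.05.

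The ALK2 gene Acvr1, which shares ligands with ALK1, averaged 94.1 ± 4.91 CPM in GLUT1EC-/- and 95.1 ± 9.90 CPM in WT, with a log2 difference of -0.02 (SE 0.13, adjusted p = 0.963 by edgeR). Tgfbr2, the type II receptor gene for TGF-beta, averaged 686 ± 95.9 CPM in GLUT1EC-/- and 607 ± 36.5 CPM in WT, with a log2 difference of 0.18 (SE 0.15, adjusted p = 0.623 by edgeR). The co-receptor gene Tgfbr3, which encodes betaglycan, had a log2 fold change of -0.11 (SE 0.14, adjusted p = 0.754 by edgeR). Smad4, the common partner of the receptor SMADs, averaged 110.3 ± 24.0 CPM in GLUT1EC-/- and 100.6 ± 3.98 CPM in WT, with a log2 difference of 0.13 (SE 0.17, adjusted p = 0.746 by edgeR).

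Among 11 further genes that BMP9 or ALK1 is known to control in endothelial cells, edgeR called 0, with 2 at an unadjusted p under 0.05 (Gja4 and Edn1), while DESeq2 called 1 and limma-voom 0. Over all tested genes, 2148 of 14838 had an unadjusted p under 0.05 with edgeR. The median log2 fold change of the 11 genes was 0.03. Gja4, the gene of the arterial gap junction protein connexin 37, had 93.8, 132 and 84.1 CPM in GLUT1EC-/- 1, 2 and 3, against 57.9, 67.1 and 61.5 CPM in WT 1, 2 and 3. Its groups did not overlap, and the log2 fold change of 0.73 (SE 0.18, adjusted p = 0.114 by edgeR) did not pass. Cdkn1a, the cell cycle inhibitor p21, averaged 1105 ± 540.2 CPM in GLUT1EC-/- and 850.4 ± 92.4 CPM in WT, with a log2 difference of 0.38 (adjusted p = 0.609 by edgeR), and was -0.11 without GLUT1EC-/- 2. These 11 genes therefore gave no common direction in these libraries. Mgp, also a target of ALK1, was counted with the antagonists and not here, and was higher in GLUT1EC-/- (log2 difference 1.40).

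Markers of other cells moved with the genotype in places. Their part in the differences of Tmem100 and of the other pathway genes, Mgp and Fstl1 included, was not tested. These lists too were chosen with earlier results of these data known. Microglia markers summed to 794 to 1720 CPM in GLUT1EC-/- and 529 to 627 CPM in WT, and of 14 tested 3 rose (C1qb, C1qc and Trem2), with a median log2 fold change of 0.94. Their most abundant genes were Csf1r, with 215 ± 79.1 CPM in GLUT1EC-/- and 186 ± 23.4 CPM in WT, and C1qc, with 211 ± 56.1 CPM in GLUT1EC-/- and 63.6 ± 4.99 CPM in WT. Fibroblast markers summed to 1036 to 1909 CPM in GLUT1EC-/- and 334 to 716 CPM in WT, with a median log2 fold change of 0.89. Of 10 tested 1 rose: Dcn, with 79.8 ± 20.3 CPM in GLUT1EC-/- and 19.5 ± 1.16 CPM in WT (SD, n = 3 each). The fibroblast groups did not overlap for 6 of the 10, against 22.9% of all tested genes. By edgeR, 9 of the 10 had an unadjusted p under 0.05, as did 2148 of all 14838 tested genes. Pericyte markers, with 0 called, summed to 1297 to 1650 CPM in GLUT1EC-/- and 1141 to 1352 CPM in WT. Smooth muscle markers, also with 0 called, summed to 2195 to 2969 CPM in GLUT1EC-/- and 2293 to 3117 CPM in WT. Astrocyte markers summed to 2786 to 3142 CPM in GLUT1EC-/- and 3655 to 3927 CPM in WT, and 1 rose (Gfap). Most of that sum was Sparcl1, with 2740 ± 203 CPM in GLUT1EC-/- and 3580 ± 149 CPM in WT. The median log2 fold change of the astrocyte list was -0.01. In the lymphocyte list 1 fell (Cd79a). Choroid plexus markers, with 0 called, summed to 4100 to 7772 CPM in GLUT1EC-/- and 5250 to 8543 CPM in WT. Among them Ttr alone averaged 4072 ± 1161 CPM in GLUT1EC-/- and 4443 ± 1424 CPM in WT, a level like that of Flt1. Neuron, erythroid and ependymal lists had 0 called. No gene of these lists was at 0 in all libraries.

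Markers of endothelial subtypes gave calls in the arterial and venous lists. Of 12 arterial markers tested, 2 rose (Mgp and Fbln5) and 2 fell (Gkn3 and Alpl), where 1.31% of all tested genes passed. The groups did not overlap for 7 of the 12, against 22.9% of all tested genes. This list was also chosen with earlier results known, so nothing is read from these shares. The summed level of the arterial list was 2155 to 2568 CPM in GLUT1EC-/- and 1969 to 2385 CPM in WT. Gkn3 averaged 14.0 ± 10.1 CPM in GLUT1EC-/- and 169.7 ± 30.8 CPM in WT. Of 8 venous markers tested, 1 rose: Vwf, the gene of von Willebrand factor, with 5584 ± 33.7 CPM in GLUT1EC-/- and 2590.2 ± 602 CPM in WT. The venous list, of which Vwf makes up much, summed to 7909 to 10893 CPM in GLUT1EC-/- and 4386 to 6687 CPM in WT. The 6 capillary markers, with 0 called and a median log2 fold change of -0.05, summed to 3646 to 5485 CPM in GLUT1EC-/- and 5558 to 6714 CPM in WT. How far the share of arterial, venous and capillary cells bears on the levels of Tmem100 and of the receptor genes was not tested.

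The genes most like Tmem100 over the 6 libraries, by the root-mean-square difference of centred log2 CPM among 12349 genes, were Gins2 (0.0768), Ms4a6d (0.0926), Ccl12 (0.170), Cyp1b1 (0.178) and Sgol2 (0.186). No other member was among them: Bmpr2 was the nearest, at rank 735, and Id1 stood at rank 9180. Gins2, Ccl12 and Sgol2 are rare transcripts, so their ranks rest on few counts. They averaged 2.39, 3.34 and 1.98 CPM in GLUT1EC-/- and 0.651, 1.09 and 0.564 CPM in WT. The genes most like Id1 were Id3 (0.0494), Nub1 (0.0585), Zfp37 (0.0589), Cbfa2t3 (0.0595) and Ankra2 (0.0630), with Id2 at rank 6 (0.0688). The ranks around Tmem100 rest largely on its gap between the genotypes, for which it was chosen, so its distance from the other members is a description only. With Pearson's correlation as the measure, 2 of the 5 genes nearest to Tmem100 and 3 of the 5 nearest to Id1 were shared with these.

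Some counts may hold reads of a neighbour. Acvrl1 overlaps the antisense gene Gm16031, Eng shares exon positions with Fpgs and Bmp6 with Txndc5 on the opposite strand, and the strand setting of the counting is not given in the sources used here. Eng lies at chr2:32646595-32682669, Acvrl1 at chr15:101128522-101145336 and Bmp6 at chr13:38345107-38500302, all on the plus strand of GRCm38 by GENCODE M21.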

How the data were processed

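Brain endothelial cell mRNA of 3 GLUT1EC-/- and 3 WT mice was sequenced from stranded TruSeq mRNA libraries, single-end at 100 bp on a NovaSeq, per the labels' protocols. Per the submitters' processing notes, the authors used STAR, featureCounts and GRCm38; versions, annotation and strand setting are not given in the sources used here. For each library the authors deposited 1 file of raw counts by gene symbol, headed as matched counts per the file headers.

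Samples were grouped by the genotype label. edgeR 4.0.16's quasi-likelihood F test (R 4.3.3) compared the genotypes over the 6 libraries with no other term, using TMM factors, filterByExpr (minimum count 10, minimum total 15) and robust dispersions, which left 14838 genes; the biological coefficient of variation came to 23.2%. The p-values are two-sided, adjusted by Benjamini-Hochberg over these genes, with a threshold of 0.05. They measure the spread between 3 animals per group. Levels are CPM scaled with TMM factors, as mean ± SD. Intervals are 95% intervals of the fit. The labels name no molecular identifiers, so reads may be PCR copies, and a floor of 3 counts covers counting error only. The fit was tested on simulated data.

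The members and lists were chosen with earlier results of these data known. Named were all 10 members; of each pathway list the called genes or else the most abundant one; pathway genes with a fold of at least 1.5 and no overlap; of each cell type list the 2 most abundant, given for the endothelial and microglia lists; and the 5 genes nearest to Tmem100 and to Id1 among genes averaging 1 CPM or more. Tcf3, Inhbb, Edn1 and the other cell type markers named beside their lists were added after their values were seen. Alternatives were other scalings and filters, DESeq2 1.42.0, limma-voom (limma 3.58.1), animal number series or sex as a term, an adjusted p under 0.1, each library left out, transcript length and another likeness measure.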

Additional observations from a re-analysis of the deposited data

Results flagged for a closer look

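Tgfbr2 was singled out because the sign of its difference turned with sex as read from Xist and Ddx3y counts, though the male libraries were nearly equal. The 2 female GLUT1EC-/- libraries had 618 and 796 CPM, against 587 and 585 CPM in the 2 female WT libraries, while the male GLUT1EC-/- library had 645 CPM, against 649 CPM in the male WT library. Over all 6 libraries the log2 fold change was 0.18. The female value of 796 CPM is that of GLUT1EC-/- 2, which is of the 500s, while both female WT libraries are of the 200s. The difference between the sexes was not tested, since each genotype has 1 male.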

How the results depend on the processing

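No paired analysis was possible because GLUT1EC-/- and WT libraries share no replicate number in the labels, and the numbers used here only name the libraries. The log2 fold change of Tmem100 lay between 1.56 and 1.89 in all alternatives run, and its call was kept in 13 of 17. Against 194 genes called, there were 879 with DESeq2, 14 with the animal number series as a term, 113 with sex as a term and 429 at an adjusted p under 0.1. Leaving out a library gave 0 (without WT 1, with 1199 at an unadjusted p under 0.05) to 862 (without GLUT1EC-/- 2), with 32 without GLUT1EC-/- 1, 283 without GLUT1EC-/- 3, 1 without WT 2 and 5 without WT 3. Members called numbered 1, against 0 with the series term (1 at an unadjusted p under 0.05) and 0 to 1 with a library left out. Pathway genes called numbered 4, against 9 with DESeq2, 0 with the series term (11 at an unadjusted p under 0.05), 2 with sex as a term, 7 at an adjusted p under 0.1 and 0 to 12 with a library left out. With the series term in edgeR, 1569 of the 14838 tested genes had an unadjusted p under 0.05. Directions turned for Acvr1, with 0.0280 under the series term and -0.0785 to 0.0682 with a library left out, for Smad4 (-0.0629 to 0.25) for Cdkn1a (-0.11 to 0.58), for Bmp6 (-0.07 to 0.25) and for Id1 (-0.38 to 0.01). The causes were not tested, beyond the smaller number of libraries where 1 was left out. Per length, the longest transcript in place of combined exons put Eng at 598, Acvrl1 at 290.0, Id3 at 280.1 and Id2 at 106 CPM per kilobase over all 6 libraries. The members were well covered, so the spread between 3 animals and not depth limits these comparisons, while Nog, Chrd, Bmper, Gdf10 and Chrdl1 rest on few counts.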

Other observations

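The E proteins are the helix-loop-helix partners that Id proteins bind. Of 3 tested, edgeR called 0, with 1 (Tcf3) at an unadjusted p under 0.05, and DESeq2 called 1. With edgeR, 2148 of all 14838 tested genes had an unadjusted p under 0.05. Tcf3, which encodes E12 and E47, averaged 107 ± 9.46 CPM in GLUT1EC-/- and 155 ± 4.97 CPM in WT (SD, n = 3 each), a log2 fold change of -0.54 (SE 0.12, adjusted p = 0.0902 by edgeR). Tcf4 averaged 297 ± 46.4 CPM in GLUT1EC-/- and 265 ± 16.7 CPM in WT, with a log2 difference of 0.16 (adjusted p = 0.662 by edgeR).

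Edn1, the gene of the vasoconstrictor endothelin 1 and a BMP9 target in endothelial cells, had 289, 408 and 335 CPM in GLUT1EC-/- 1, 2 and 3, against 481, 418 and 479 CPM in WT 1, 2 and 3. The groups did not overlap, and the log2 fold change of -0.42 (SE 0.16, adjusted p = 0.282 by edgeR) did not pass. Inhbb, which encodes a subunit of activin B, a ligand that also reaches BMP receptors, had 5.14, 27.6 and 3.25 CPM in GLUT1EC-/- 1, 2 and 3, against 1.42, 2.45 and 4.09 CPM in WT 1, 2 and 3. GLUT1EC-/- 2 alone was far above the others, and the log2 fold change of 2.16 (SE 0.79, adjusted p = 0.257 by edgeR) did not pass.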
